A study of Arabidopsis thaliana with 2 samples.

Results

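Ribosomes are assembled in the nucleolus, where large complexes of assembly factors fold, modify and cut the ribosomal RNA precursor and load ribosomal proteins onto it. This section describes 46 *Arabidopsis thaliana* genes for such factors in leaves that over-express NST1, a NAC-family switch for the thickening of secondary walls. The genes were listed by function, with earlier results of these data known. They comprise proteins of small nucleolar ribonucleoproteins (snoRNPs), the small-subunit processome, the PES-BOP-WDR12 complex, NOC proteins and nucleolar GTPases. Of the 46 genes, 27 were measured, each by 1 probe named for a single gene, out of 9253 genes measured in all. The other 19 had no such probe and were not analysed here, among them both fibrillarin genes, both nucleolin genes, the NOP56 genes, the H/ACA pseudouridine synthase gene NAP57, nucleostemin-like NSN1 and all 4 NOC genes.

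RNA came from rosette leaves of 2-week-old plants kept without treatment under days of 16 h light with 8 h dark. Plants no. 36 and no. 44 were independent first-generation transformants carrying NST1 under the 35S promoter, which is active in most plant tissues. Each was hybridised in Cy5 on its own 2-colour array, with wild type in Cy3, so the group held 2 plants and 2 arrays. The labels describe ectopic wall thickening in the shoots of such plants. By the labels, wild type counted as a single control without a spread of its own. Cy5 always held the over-expressor, so dye and genotype cannot be told apart. A value is the authors' deposited log ratio, which was taken to be the log10 of Cy5 over Cy3. The sources used here state neither its base, nor its centring, nor its direction, so a negative value means likely lower in the over-expressor, and folds hold only for base 10.

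In plants, snoRNPs guide the chemical modification of ribosomal RNA, the processome cuts out the small-subunit RNA, and the PES-BOP-WDR12 complex is needed for maturation of the large subunit. Demand for these factors is highest in growing and dividing tissue, as young leaves contain. The annotation tables gave a symbol or name for 4 of the 27 measured members (IMP4, YAO, PCN and PES). The families of the other 23 are background knowledge of *Arabidopsis* homologues of yeast proteins, not content of the files.

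All 27 measured factors had log ratios below 0 in both plants. Below 0 on both arrays lay 41.0% of all 9335 probes with 1 gene. In the test, 21 of the 27 fell, 6 did not pass and 0 rose (limma, two-sided against 0, Benjamini-Hochberg over 22575 probes, threshold 0.05). Among all probes with 1 gene, 12.4% fell and 9.99% rose in that test. Since the members were chosen with earlier results of these data known, shares set beside all probes are description. They are no independent test of the set. With the threshold at 0.01, or with the ordinary test without a prior, 0 members passed after adjustment. At an unadjusted p under 0.05, limma gave 27 of the 27 lower and 0 higher, where 23.3% of all probes with 1 gene were lower and 23.6% higher. The ordinary test gave 6 of 26 testable members lower and 0 higher at that level, where 10.7% of all testable probes with 1 gene were lower and 9.02% higher. The median of the 27 means was -0.288, or 1.94-fold lower, against 0.001 over all probes with 1 gene. On single arrays it was -0.314 in plant 36 and -0.251 in plant 44. At or beyond 1.5-fold lower in both plants lay 22 of the 27, against 8.54% of all probes with 1 gene, and at or beyond 2-fold lay 10, against 2.44%. The spread between plants 36 and 44 lies behind these p-values, in limma together with variance borrowed from other probes. The spread between the plants may be technical in part, and wild type, a single control by the labels, adds none. A smaller share of cells that express these genes and less RNA per cell cannot be told apart in whole leaves.

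**Figure D1:**
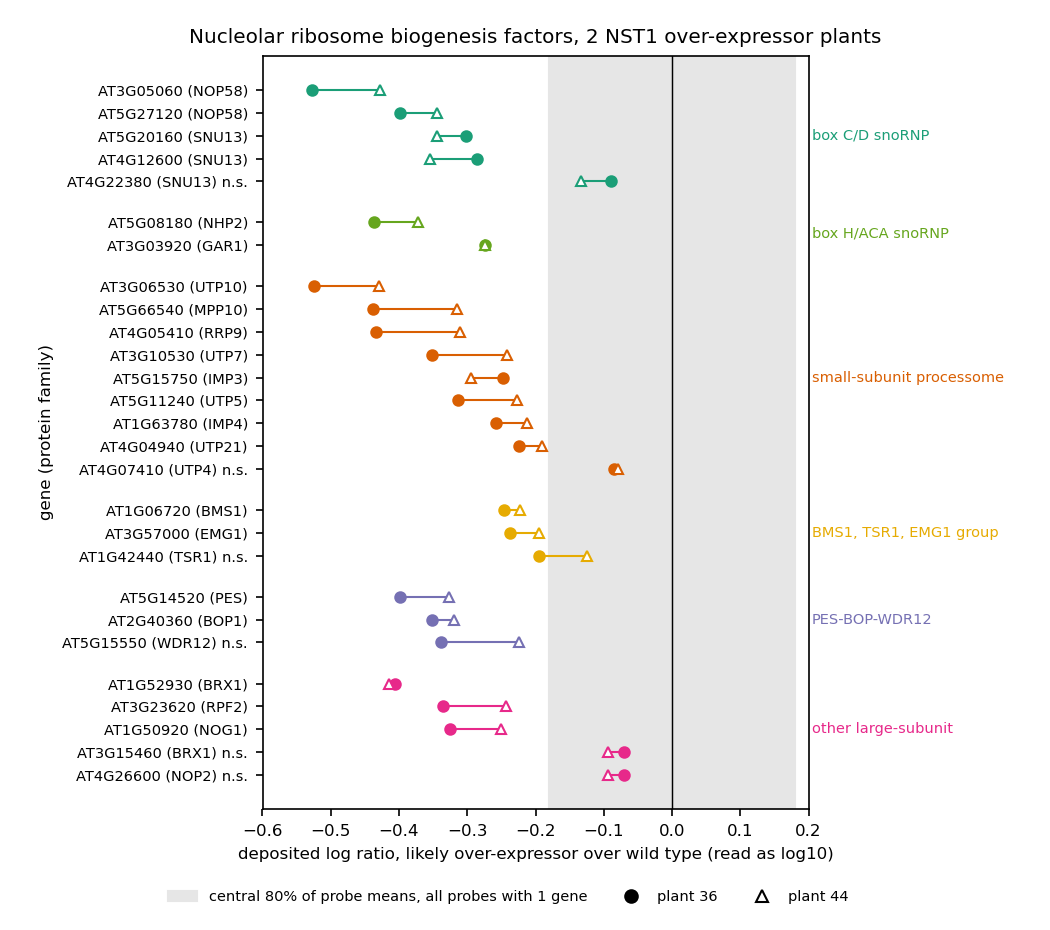
Log ratio (x axis, read as log10) of each of the 27 measured factors (y axis, locus with protein family), with plant 36 as filled circles and plant 44 as open triangles, coloured by role; n.s. marks the 6 genes that did not pass, and the grey band is the central 80% of probe means over all probes with 1 gene. All points lie below 0, from -0.527 (AT3G05060 in plant 36) to -0.070 (AT4G26600 in plant 36).

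The box C/D snoRNPs place methyl groups on ribosomal RNA, with NOP58 as a core scaffold and SNU13 as the protein that first binds the guide RNA. Of 5 measured genes of this class, 4 fell. The lowest of all members was the NOP58 gene AT3G05060, at -0.527 in plant 36 and -0.428 in plant 44. Its mean was -0.48 ± 0.07 (SD, n = 2 plants), or 3.0-fold lower, with limma adjusted p = 0.0313. The other NOP58 gene, AT5G27120, lay at -0.398 and -0.344 and fell as well (2.35-fold, limma adjusted p = 0.0286). Both NOP58 genes were thus low in both plants, and both lay lower in plant 36.

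SNU13 also belongs to the spliceosome in yeast and animals, and 3 of its *Arabidopsis* genes were measured. AT5G20160 lay at -0.302 in plant 36 and -0.345 in plant 44, and AT4G12600 at -0.285 and -0.355. These 2 fell by a similar amount, 2.11-fold and 2.09-fold, and lay lower in plant 44. The last SNU13 gene, AT4G22380, lay at -0.090 and -0.133 and did not pass (limma adjusted p = 0.067), but passed in 3 of 8 other settings. Its values in both plants were above those of the other 2 SNU13 genes, by 0.212 on the log scale between the highest and the lowest mean, a difference that was not tested. Whether the probes of such related genes also bind each other's transcripts is not known here.

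The box H/ACA snoRNPs convert uridine to pseudouridine, and both measured genes of this class fell. NHP2, which binds the guide RNA, is encoded by AT5G08180, which lay at -0.436 and -0.372 (2.54-fold lower, limma adjusted p = 0.029). GAR1, which helps the enzyme turn over, is encoded by AT3G03920, which lay at -0.274 on both arrays. With no spread between the plants, its test rested on the variance limma borrows from other probes (1.88-fold lower, limma adjusted p = 0.0262).

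The small-subunit processome is the large particle around U3 snoRNA that folds and cuts the precursor of the small-subunit RNA. Of 9 measured genes, 8 fell, with a median of -0.271. The lowest was AT3G06530, of the UTP10 family of long helical-repeat scaffold proteins, at -0.525 in plant 36 and -0.429 in plant 44. Its mean was -0.48 ± 0.068 (SD, n = 2 plants), or 3.0-fold lower (limma adjusted p = 0.031), nearly the same as that of the lowest NOP58 gene.

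MPP10, IMP3 and IMP4 form 1 subcomplex of the processome, and the genes of all 3 fell. The MPP10 gene AT5G66540 lay at -0.438 and -0.315 (2.38-fold lower, limma adjusted p = 0.0421). The IMP3 gene AT5G15750 lay at -0.247 and -0.294 (1.86-fold) and IMP4 (AT1G63780), a Brix-domain protein, at -0.258 and -0.212 (1.72-fold). MPP10 was thus the lowest of the 3 in both plants, and IMP3 was the single processome gene that lay lower in plant 44.

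YAO (AT4G05410), the homologue of the U3-binding WD40 protein RRP9 and named for a gametophyte and embryo mutant, lay at -0.433 and -0.310. It fell 2.35-fold (limma adjusted p = 0.0426). WD40 proteins of the UTP groups build much of the processome, and 4 more genes of this kind were measured. The UTP7 gene AT3G10530 lay at -0.352 and -0.242 and had the highest adjusted p of the genes that fell (limma adjusted p = 0.0484). It no longer passed without 462 unnamed probes that lay below -1.2 on both arrays (limma adjusted p = 0.0513), while its value stayed as it was. The UTP5 gene AT5G11240 lay at -0.314 and -0.227 (1.86-fold) and the UTP21 gene AT4G04940 at -0.224 and -0.190 (1.61-fold), and both fell. PCN (AT4G07410), named POPCORN and a homologue of UTP4, stood apart from them at -0.085 and -0.079 and did not pass (1.21-fold, limma adjusted p = 0.0637).

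BMS1, EMG1 and TSR1 also act on the small subunit, and their 3 genes had a median of -0.216, within the range of the processome genes. BMS1 is a GTPase of the early particle, TSR1 is its relative in the late cytoplasmic particle, and EMG1 methylates a pseudouridine of the small-subunit RNA. The BMS1 gene AT1G06720 lay at -0.246 in plant 36 and -0.222 in plant 44 and fell (1.71-fold, limma adjusted p = 0.0302). The EMG1 gene AT3G57000 lay at -0.237 and -0.195 and fell (1.64-fold, limma adjusted p = 0.0353). The TSR1 gene AT1G42440 lay at -0.195 and -0.124 and did not pass (limma adjusted p = 0.0641), but passed in 4 of 8 other settings. None of the 3 reached 2-fold in either plant.

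All members of the PES-BOP-WDR12 complex were measured. PESCADILLO (AT5G14520) lay at -0.398 in plant 36 and -0.327 in plant 44 and fell 2.3-fold (limma adjusted p = 0.0316). The BOP1 gene AT2G40360 lay at -0.351 and -0.320 and fell 2.17-fold (limma adjusted p = 0.0265). The WDR12 gene AT5G15550 lay at -0.338 and -0.224. It missed the threshold (limma adjusted p = 0.0528), but passed in 5 of 8 other settings. All 3 genes lay lower in plant 36, where each was at or beyond 2-fold.

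The other measured factors of the large subunit were 5 genes, of which 3 fell. BRX1 and RPF2 are Brix-domain proteins, and RPF2 brings the small ribosomal RNA of the large subunit into the particle. The BRX1 gene AT1G52930 lay at -0.406 and -0.415, with a small spread (SD 0.0064, n = 2 plants), and fell 2.57-fold (limma adjusted p = 0.0199, the lowest of the 27). Its paralogue AT3G15460 lay at -0.071 and -0.094 and did not pass (1.21-fold, limma adjusted p = 0.0733). The means of the 2 BRX1 genes were 0.328 apart on the log scale, more than those of the 2 NOP58 genes, at 0.106, and neither difference was tested.

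The RPF2 gene AT3G23620 lay at -0.335 and -0.243 and fell 1.95-fold (limma adjusted p = 0.0426). The gene AT1G50920, for a NOG1 GTPase of the pre-large particle, lay at -0.326 and -0.251 and fell 1.94-fold (limma adjusted p = 0.0371). AT4G26600, of the NOP2 family of RNA cytosine methyltransferases, lay at -0.070 and -0.094 and did not pass (limma adjusted p = 0.0747, the highest of the 27). RPF2 and NOG1 were thus close to each other in both plants, and the NOP2 gene was as near to 0 as the higher BRX1 gene.

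Against all probes with 1 gene, 22 of the 27 members lay in the lowest 10% on both arrays, which ended at -0.192 in plant 36 and -0.178 in plant 44. The other 5 were the 4 genes between -0.07 and -0.133 (PCN, the higher SNU13 and BRX1 genes and the NOP2 gene) and the TSR1 gene, which lay in that range in plant 36 alone. Across the 27 members, the values of the plants correlated with Pearson r = 0.896 and Spearman rho = 0.849, as a description, since both arrays may share 1 wild-type RNA and all carry the same dyes. Over all probes with 1 gene r was 0.872 and rho was 0.863.

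**Figure D2:**
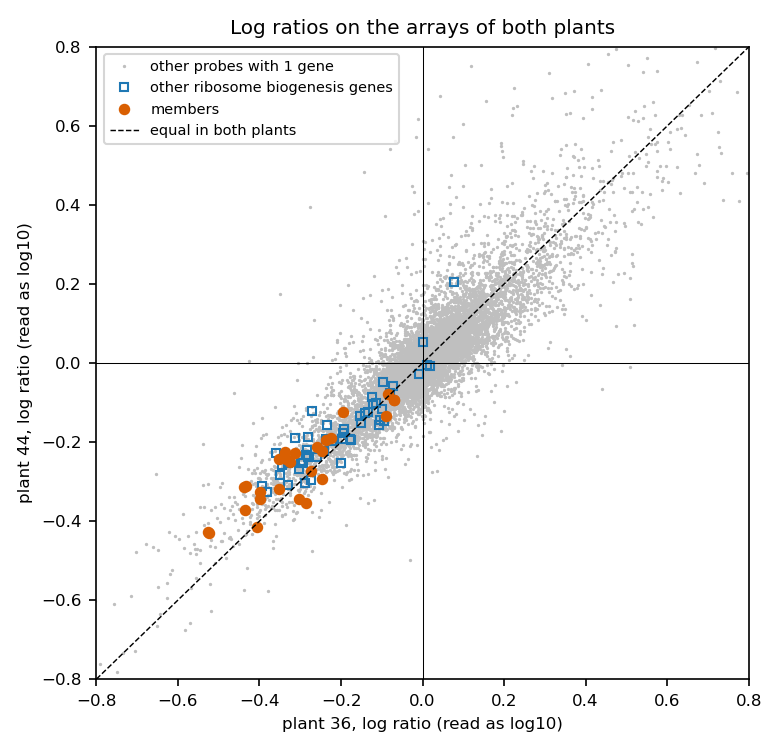
Log ratio in plant 44 (y axis) against plant 36 (x axis), both read as log10, for the 27 members (orange circles), 48 probes of other ribosome biogenesis genes (blue squares) and other probes with 1 gene (grey dots); the dashed line marks equal values, and 52 grey probes lie outside the axes. All members lie to the lower left of 0 on both axes.

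Most members lay lower in plant 36 than in plant 44. The log ratio was lower in plant 36 for 19 of the 27 members, lower in plant 44 for 7 and equal for 1. The median difference (plant 36 minus plant 44) was -0.046. Of all probes with 1 gene that lay below 0 on both arrays, 52.2% were lower in plant 36. Of the 21 members that fell, 76.2% were lower in plant 36, against 63.8% of all probes with 1 gene that fell. The 48 probes of other ribosome biogenesis genes leaned the same way, with 35 lower in plant 36 and 13 lower in plant 44. Among the 30 of these probes that fell, 24 were lower in plant 36. The lean to plant 36 was thus not particular to the members. By role, 8 of 9 processome genes and all 6 genes of the PES-BOP-WDR12 complex and of the BMS1, TSR1 and EMG1 group were lower in plant 36. Among box C/D genes 2 of 5 were, and among other large-subunit factors 2 of 5. In the list of other genes, 9 of 10 small-subunit probes and 10 of 11 helicase probes were lower in plant 36. There, 8 of 12 large-subunit probes, 4 of 5 RNA polymerase I probes and 4 of 10 RNA exosome probes were. The widest differences were in the MPP10 gene and YAO, each with a difference of -0.123, and the widest in the other direction was 0.07, in the SNU13 gene AT4G12600. With 1 array a plant, no difference between plants could be tested.

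**Figure D3:**
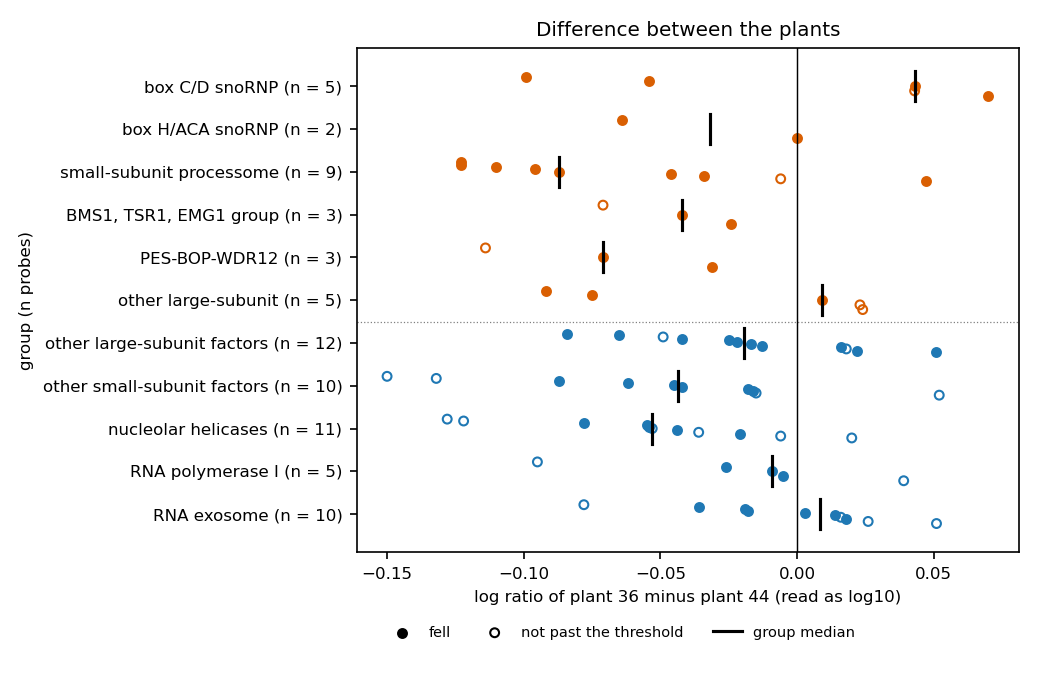
Log ratio of plant 36 minus that of plant 44 (x axis, read as log10) for each probe, by role class of the members (orange) and by group of other ribosome biogenesis genes (blue) on the y axis; filled points fell, open points did not pass, and bars are group medians. Processome genes lie mostly to the left of 0, with a median of -0.087, and box C/D genes on both sides.

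Other genes of ribosome biogenesis were taken from a list of 96 loci that holds none of the members, and 47 of them were measured by 48 probes. Of these probes, 30 (62.5%) fell, 0 rose and 44 lay below 0 in both plants. After adjustment the ordinary test without a prior passed 0 of them. At an unadjusted p under 0.05, limma gave 42 lower and 0 higher, against 23.3% and 23.6% of all probes with 1 gene. The ordinary test gave 20 lower and 0 higher at that level, against 10.7% and 9.02% of all testable probes with 1 gene. The median was -0.196, and 25 probes were at or beyond 1.5-fold lower in both plants, against 8.54% of all probes with 1 gene. The members' median was lower, at -0.288, but this difference between lists chosen with results known was not tested.

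The lowest of these other genes were AT2G40700, of a nucleolar DEAD-box helicase (-0.381 in plant 36 and -0.326 in plant 44), and AT3G22660, of the EBP2 family of large-subunit factors (-0.395 and -0.311). They fell 2.26-fold and 2.25-fold. Next came AT1G25260, of the MRT4 family that places the ribosomal stalk (-0.330 and -0.308), and AT1G23280, of the MAK16 family (-0.349 and -0.284), which fell 2.08-fold and 2.07-fold. Nearest to 0 among the probes that fell were those of AT5G05210 (-0.114 and -0.101), AT5G08420 (-0.121 and -0.103), NRPA2 (AT1G29940), given with RNA polymerase I, and AT1G12650 (-0.142 and -0.126). Of 12 large-subunit probes 10 fell, of 10 small-subunit probes 6, and of 11 probes of nucleolar helicases 5. The share over all probes with 1 gene was 12.4%.

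RNA polymerase I, which transcribes the ribosomal RNA precursor, was measured by 5 probes, all below 0 in both plants, of which 3 fell. Over all probes with 1 gene, 41.0% lay below 0 on both arrays and 12.4% fell. The largest subunits of this polymerase are NRPA1 (AT3G57660), at -0.198 in plant 36 and -0.193 in plant 44, and NRPA2 (AT1G29940), at -0.134 and -0.125. Both fell, by 1.57-fold and 1.35-fold. AT1G75670 fell as well, at -0.223 and -0.197, whereas AT3G13940 (-0.281 and -0.186) and AT3G25940 (-0.105 and -0.144) did not pass. The RNA exosome trims the ends of precursor RNAs and also degrades many other RNAs. Of its 10 probes 6 fell, with a median of -0.168, the value nearest to 0 among these groups, and 2 had means at or above 0, those of RRP45a (0.002) and AT1G54440 (0.005). No probe was measured for the 6 listed nucleolar deacetylases and remaining snoRNP genes.

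**Figure D4:**
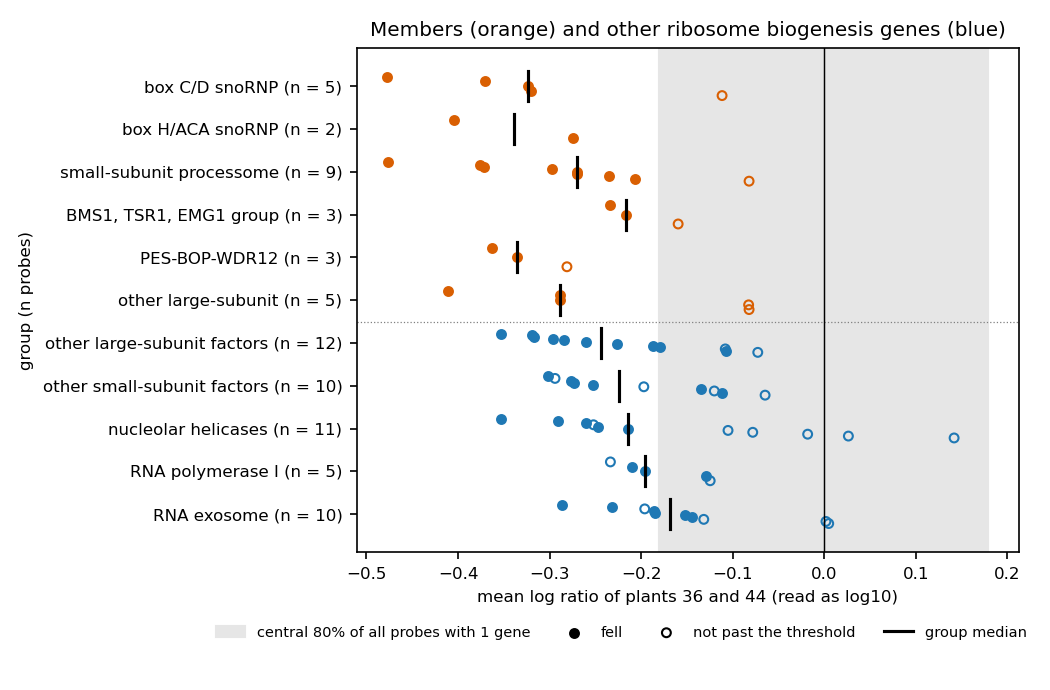
Mean log ratio of both plants (x axis, read as log10) for each probe, by role class of the 27 members (orange) and by group of the other 48 ribosome biogenesis probes (blue) on the y axis; filled points fell, open points did not pass, bars are group medians, and the grey band is the central 80% of all probes with 1 gene. Medians of the member classes run from -0.339 to -0.216, and those of the other groups from -0.243 to -0.168.

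Of 24 listed markers of dividing cells 2 were measured and both fell, where 12.4% of all probes with 1 gene did. Topoisomerase TOPII (AT3G23890) lay at -0.536 in plant 36 and -0.409 in plant 44. The replication helicase subunit PRL (AT4G02060) lay at -0.492 and -0.450. Both lay lower in plant 36. With 2 of 24 measured, they do not stand for the list, and any link to the members was not tested. Of 15 mesophyll markers 2 had a probe, RCA and LHCB4.1, and neither passed. Both held the same pair of values, -0.220 and -0.082, that 73 probes shared. Whether that pair measures either gene is not known here, so mesophyll was not assessed. No member held that pair. Of 5 root markers 4 were measured, with AT5G65530 at 0.278 and 0.236 (rose) and PYK10, EXPA18 and EXPA7 between -0.095 and -0.020 without passing, and the trichome gene TRY lay at -0.001 and -0.047. The 9 listed xylem vessel markers had no probe named for a single gene and were not analysed here. Ratios give no level, so the tissue could not be checked by the presence of leaf markers.

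The member probes were set beside probes with adjacent numbers. When each of the 27 numbers was moved by 1 to 3 places either way, the median of the probes found there ranged from -0.0295 to 0.005, against -0.288 for the members themselves. In each such shift 0 to 5 of the 27 probes fell, where 2795 of all 22575 probes did. The members were chosen with earlier results of these data known, so this is no independent check of the probe names.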

How the data were processed

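Leaf RNA of 2 over-expressor plants was measured against wild type on 1 array each, per the labels. The authors deposited 1 log ratio a probe and array, read here as log10 from the values, for 22575 probes. The sources used here state no step before deposit. No intensity was used, so the brightness of a probe is not known, and precision is limited by the number of arrays.

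Probes were named through the platform's annotation and the TAIR10.1 RefSeq gene table: 9335 had 1 gene (9317 matched RefSeq), 40 several, and 13200 were unnamed here. NST1 was not among the named probes and was not analysed here. No filter on low values and no centring was used. limma 3.58.1 in R 4.3.3 fitted an intercept (1 residual degree of freedom, prior of 1.37), with Benjamini-Hochberg adjustment over all probes at 0.05. The fit was also run on simulated arrays with independent errors, which is no check of a shared wild-type RNA or of dye. Named genes were all measured members, the 4 lowest and 4 highest other ribosome biogenesis probes past the threshold (all below 0), all measured genes of lists with 5 or fewer, and some chosen after values were seen (RRP45a, AT1G54440, AT1G71370). The members and lists were chosen with earlier results of these data known. Alternatives concerned centring, scaling, the prior, the threshold, the probes fitted, and single plants. A planned ribosomal protein list, promoter motifs and protein identities were not used here.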

Additional observations from a re-analysis of the deposited data

How the results depend on the processing

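The counts of probes that fell depend on the variance limma borrows from other probes. Without a prior 0 of 26 testable members and 0 of 48 other ribosome biogenesis probes passed, and with the limma threshold at 0.01 the counts were 0 and 0, with 27 of 27 members at an unadjusted p under 0.05 in limma and 6 without a prior. A 2-fold limit in both plants, which is no test, held 10 members and 3 other probes. The other settings run were centring, scaling, the robust prior, fitting only probes that have 1 gene, leaving out shared pairs or low unnamed probes, and 1.5-fold. In these, 20 to 24 members and 25 to 39 other probes were lower, and 0 rose in any. Calling a gene only if all its probes passed gave 21 members again by construction, as each member has 1 probe. The fit without the low unnamed probes was chosen after the data were seen. The members' median lay between -0.314 and -0.251 on single plants, and that of the other probes between -0.2 and -0.189. After centring and scaling they were -0.286 and -0.193. Only centring and scaling alter the values, and all 27 members stayed below 0 on both arrays after them. This is no check of the sign. The array medians were -0.002 and -0.004, too small to move even the member value nearest to 0, -0.070, across it. Counts of calls without 1 plant were not run, since that leaves no residual degrees of freedom. No paired analysis was possible because there was 1 group. What probe brightness limits is not known here.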

Other observations

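Among the helicases, AT1G71370 was the single gene with means above 0, on both of its 2 probes. They lay at 0.000 and 0.078 in plant 36 and at 0.053 and 0.206 in plant 44, and neither passed (limma adjusted p = 0.43 and 0.139). RAPTOR1 (AT3G08850), a partner of the TOR kinase that promotes ribosome production, was the single measured gene of 10 listed regulators and lay at 0.005 and -0.005. The annotated gene order also gave the genes next to the members on the chromosomes. Of 17 such measured genes outside both lists, 3 fell and 1 rose, and their median was 0.0115. Among all probes with 1 gene, 12.4% fell and 9.99% rose, and the median was 0.001.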
